A study of Sus scrofa with 16 samples.

Results

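The mitochondrial genome of the pig encodes 7 subunits of respiratory complex I, and all 7 genes (ND1, ND2, ND3, ND4, ND4L, ND5 and ND6) were chosen by name and by their place on chromosome MT, out of 25880 genes in the count table. The animals were 16 gilts of the Złotnicka White breed, whose pituitaries were taken whole, 8 with low feed conversion (LFC) and 8 with high feed conversion (HFC), where a high value means more feed per unit of weight gain. The gilts were unrelated, came from different farms, were kept at 1 test station with the same housing and feeding, were labelled day 180 and received no treatment, and each library was 1 animal. Per the paper, the test ended at a set body weight, which the HFC gilts reached later. The day 180 label need not be the age of each gilt at slaughter. Feed conversion was the trait by which gilts were selected. The groups therefore differed in growth, time in the test and body composition as well. These cannot be told apart from feed conversion here.

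Complex I, the NADH dehydrogenase at the entry of the respiratory chain, takes electrons from NADH and pumps protons across the inner mitochondrial membrane. The mitochondrially encoded subunits form the core of its membrane arm, whereas the subunits that hold the redox centres and all the accessory subunits are imported from the cytosol. Mitochondrial genes are transcribed from both strands of the circle as long precursors that are cut mainly at tRNAs, and ND6 is the single protein gene on its strand. In hormone-secreting cells of the pituitary, as in other cells, this chain supplies ATP.

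Total counts ran from 6010629 to 11794256 per pig, and the 7 genes took from 0.315% to 1.08% of them, with at least 412 counts for any of the 7 in any pig. Levels are given as CPM, counts brought to a common library size by TMM scaling, and a positive log2 fold change is a higher level in the HFC pigs. In pigs of the same group libraries differed beyond sampling noise (chi-square per degree of freedom from 11.9 to 91.0), so no library was a copy of another of its group. Markers of hormone-secreting cells were abundant, with growth hormone (GH1) at 47670 ± 11860 and 49130 ± 20730 CPM in LFC and HFC pigs (SD, n = 8 each). Of 7 such markers tested (of 9 listed), 1 was higher in the HFC gilts at unadjusted p ≤ 0.05 (PRL, given further on) and 2 were lower, against 7.03% and 4.41% of all genes tested, and these genes were named after their values were seen. The lower ones were TBX19, a factor of corticotroph cells (log2 fold change -0.53, edgeR's quasi-likelihood F test, unadjusted p = 0.0148, adjusted p = 0.413), and CGA, the common subunit of glycoprotein hormones (-0.56, unadjusted p = 0.0475, adjusted p = 0.433). Libraries were made from whole glands, so fewer cells of a type and less RNA per cell cannot be told apart. Library preparation did not keep the strand, and how reads that also match nuclear copies of mitochondrial sequence were counted is not given in the sources used here.

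The mean level of all 7 genes was higher in the HFC gilts, against 47.9% of all genes tested, with log2 fold changes from 0.053 for ND3 to 1.02 for ND6. No gene of the 7 had its lowest HFC pig above its highest LFC pig, as 0.00734% of the genes tested did. ND5 and ND6, which lie end to end, had about 2-fold higher means, ND1 and ND2 were intermediate, ND4 and ND4L were smaller, and ND3 had nearly equal means. In edgeR (quasi-likelihood F test, Benjamini-Hochberg adjusted), 0 of the 7 and 0% of the 13621 genes tested reached the call threshold (adjusted p ≤ 0.05 and at least 1.3-fold), and the smallest adjusted p among the 7 was 0.372. At unadjusted p ≤ 0.05 with the same fold change, 4 of the 7 (ND1, ND2, ND5 and ND6) were higher in the HFC pigs, against 4.05% of all genes tested, and none of the 7 was lower, against 1.76%. Without the fold change minimum, 61.4% of the genes at this p were higher in the HFC pigs, against 46.0% with total library scaling, while the 7 log2 fold changes were above 0 with both scalings. With total library and with upper-quartile scaling 3 of the 7 (ND1, ND5 and ND6) were at unadjusted p ≤ 0.05, as ND2 had p of 0.060 and 0.0542 (edgeR). DESeq2 called ND5 and ND6 (adjusted p of 0.00876 and 0.0262), 2 of the 29 genes it called; its calls were 0.216% of the genes with an adjusted p, and those higher in the HFC group 0.141%. The median log2 fold change was 0.46 over the 7 genes and -0.01 over all genes tested. Members of 1 genome share transcripts and pigs, so the 7 are not separate replicates of the comparison.

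**Figure D1:**
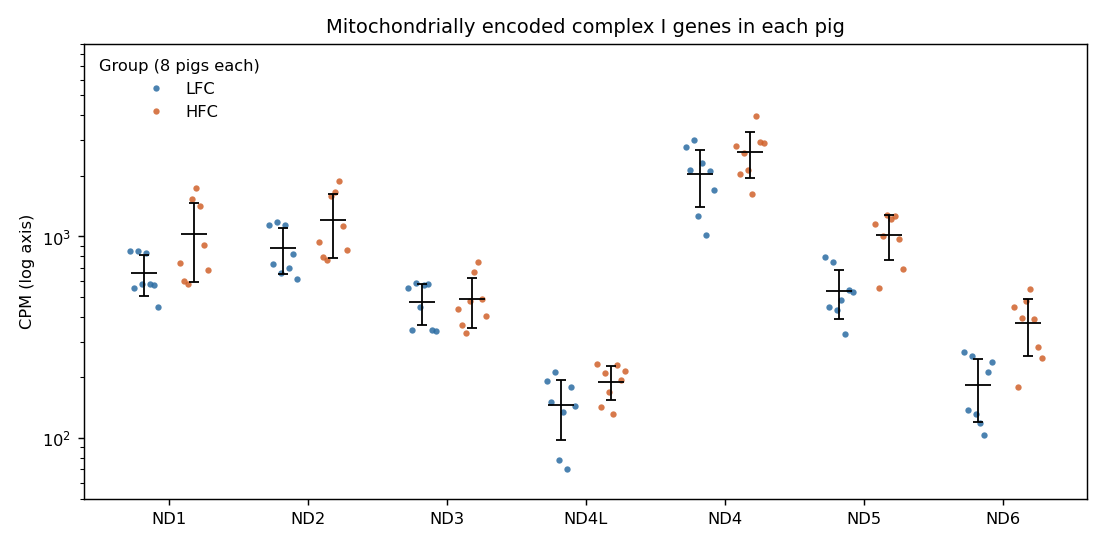
CPM of each of the 7 genes (log axis) in the 8 LFC and 8 HFC pigs; each point is 1 pig, the long bar is the mean and the whiskers are 1 SD. The points of ND5 and ND6 are shifted upward in the HFC pigs, with 6 of 8 above the highest LFC pig, whereas those of ND3 overlap over most of their range.

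ND5 is the largest of the subunits and one of the antiporter-like proteins that are thought to carry protons. The gene (ENSSSCG00000018091, Sscrofa11.1, chromosome MT, 12935 to 14755, a single protein-coding gene of 1821 bases) had 328 CPM in the lowest, a median of 508 and 792 CPM in the highest LFC pig. In the HFC pigs the lowest was 556, the median 1076 and the highest 1281 CPM. All 8 HFC pigs lay above the LFC median and 6 lay above the highest LFC pig, so that the groups overlapped only through 2 HFC pigs. Means were 538 ± 158 and 1017 ± 271 CPM (SD, n = 8 each), a log2 fold change of 0.92 ± 0.20 (SE) (edgeR's quasi-likelihood F test, unadjusted p = 1.88e-04, adjusted p = 0.372). Of the 7 genes ND5 had the smallest p, and it was among those at unadjusted p ≤ 0.05 in every setting examined.

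ND6 is a small subunit embedded next to the central part of the membrane arm. Its gene (ENSSSCG00000018092, chromosome MT, 14739 to 15266, 528 bases) ranged from 104 to 267 CPM in the LFC pigs, with a median of 176 CPM. The HFC pigs ranged from 180 to 546 CPM, with a median of 392 CPM. As for ND5, all 8 HFC pigs were above the LFC median and 6 were above the highest LFC pig, and the lowest in the HFC group was HFC 2 for both genes. The log2 fold change was 1.02 ± 0.24 (SE) (edgeR's quasi-likelihood F test, unadjusted p = 4.98e-04, adjusted p = 0.372), from means of 183 ± 66.8 and 371 ± 124 CPM (SD, n = 8 each). ND6 varied the most over the 16 pigs, by 5.25-fold from LFC 6 to HFC 5.

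The annotated spans of ND5 and ND6 share 17 bases (14739 to 14755), which is 0.934% of ND5 and 3.22% of ND6, and the genes are read from opposite strands. In human cells the message of ND5 runs on past its stop codon, through sequence antisense to ND6. Reads of ND6 and of such a message cannot be told apart in libraries without strand, so the level given for ND6 is uncertain as a measure of ND6 mRNA. The count of ND5 was 2.24 to 4.05 times that of ND6 in the 16 pigs, with means of 3.05 ± 0.537 and 2.82 ± 0.398 in LFC and HFC pigs (SD, n = 8 each). This ratio did not pass the test between groups (exact two-sided permutation test, p = 0.371). Over 16 pigs the log2 levels of ND5 and ND6 had r = 0.958, and r = 0.914 after the group means were removed, given as a description.

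ND1 lies at the joint of the membrane arm and the peripheral arm, near the quinone site. Its gene (ENSSSCG00000018065, chromosome MT, 3922 to 4876, 955 bases) ran from 446 to 851 CPM in the LFC pigs, with a median of 579 CPM. In the HFC pigs it ran from 581 to 1739 CPM, with a median of 827 CPM. All 8 HFC pigs exceeded the LFC median, yet 4 of them were within the LFC range. The log2 fold change was 0.64 ± 0.24 (SE) (edgeR's quasi-likelihood F test, unadjusted p = 0.0144, adjusted p = 0.413), from means of 658.5 ± 159 and 1027 ± 464 CPM (SD, n = 8 each). The SD of the HFC pigs was widened by HFC 4, HFC 5 and HFC 6, which had 1529, 1739 and 1422 CPM.

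ND2, another antiporter-like subunit, is the next protein gene after ND1. It (ENSSSCG00000018069, chromosome MT, 5087 to 6128, 1042 bases) ran from 619 to 1173 CPM around a median of 774 CPM in the LFC pigs. The HFC pigs ran from 766 to 1885 CPM around a median of 1031 CPM. Of the HFC pigs, 7 were above the LFC median and 3 were above the highest LFC pig. The log2 fold change was 0.46 ± 0.21 (SE) (edgeR's quasi-likelihood F test, unadjusted p = 0.0456, adjusted p = 0.433), from means of 874 ± 239 and 1203 ± 446 CPM (SD, n = 8 each). This p rested on single pigs, as ND2 missed 0.05 in 9 of the 16 fits with 1 pig left out.

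ND4 and ND4L are carried on 1 mRNA in mammals, and their annotated spans share 7 bases (11359 to 11365). ND4 (ENSSSCG00000018087, chromosome MT, 11359 to 12736, 1378 bases), also antiporter-like, was the most abundant of the 7, with a range of 1014 to 2996 CPM and a median of 2114 CPM in the LFC pigs. In the HFC pigs the range was 1616 to 3962 CPM and the median 2697 CPM. The groups overlapped widely, with 1 HFC pig above the LFC range and 2 LFC pigs below the HFC range. Its log2 fold change of 0.37 ± 0.21 (SE) did not pass the test (edgeR's quasi-likelihood F test, unadjusted p = 0.105, adjusted p = 0.474).

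ND4L, a short subunit next to ND2 and ND6 in the membrane, had the lowest counts. The gene (ENSSSCG00000018086, chromosome MT, 11069 to 11365, 297 bases) ran from 70.6 to 213 CPM with a median of 148 CPM in the LFC pigs, and from 131 to 232 CPM with a median of 203 CPM in the HFC pigs. Of the HFC pigs, 6 were above the LFC median and 3 above the LFC range. The log2 fold change of 0.39 (standard error 0.20) was close to that of ND4 and likewise did not pass (edgeR's quasi-likelihood F test, unadjusted p = 0.0716, adjusted p = 0.451). ND4 had 11.7 to 17.2 times the count of ND4L in the 16 pigs, a narrow range beside the 3.91-fold spread of ND4 itself. This ratio had means of 14.2 ± 1.88 and 13.7 ± 1.79 in the LFC and HFC pigs (SD, n = 8 each; exact two-sided permutation test, p = 0.576).

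ND3, a short subunit with a loop that moves during catalysis, was the exception among the 7. The gene (ENSSSCG00000018084, chromosome MT, 10653 to 10998, 346 bases) ran from 340 to 587 CPM with a median of 499 CPM in the LFC pigs, and from 332 to 745 CPM with a median of 458 CPM in the HFC pigs. The HFC median was below the LFC median, and 2 of 8 HFC pigs lay above the LFC median. The log2 fold change was 0.053 ± 0.18 (SE) (edgeR's quasi-likelihood F test, unadjusted p = 0.772, adjusted p = 0.903), and its sign turned to -0.053 with limma voom. ND3 also varied the least over the 16 pigs, by 2.24-fold.

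Compared per length, as CPM per kilobase, ND4 had the highest mean level in the LFC pigs (1478 ± 499, SD, n = 8) and ND5 the lowest (295 on average). Going down this order, ND4 exceeded ND3 in 13 of 16 pigs, ND3 exceeded ND2 in 15, ND2 exceeded ND1 in 14, ND1 exceeded ND4L in 11, ND4L exceeded ND6 in 12 and ND6 exceeded ND5 in 15. The step from ND4L to ND6 held in 8 of 8 LFC pigs but in 4 of 8 HFC pigs, and the mean of ND6 (703 CPM per kilobase) was above that of ND4L (642 CPM per kilobase) in the HFC group. The mean of ND5 was also the lowest in the HFC pigs, at 558 CPM per kilobase.

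Each gene was next compared with the other mitochondrial mRNAs of the same pig, as the log2 ratio of its counts per kilobase to those of the other 12 protein genes summed, a measure that does not depend on scaling between libraries. ND5 ran from -7.14 to -6.46 in the LFC pigs and from -6.55 to -5.70 in the HFC pigs. All 8 HFC pigs were above the LFC median, and the mean ratio was 1.56-fold higher, a log2 difference of 0.65 (exact two-sided permutation test over 12870 splits, p = 7.77e-04, where the smallest possible is 1.55e-04). ND6 ran from -7.37 to -5.83 and from -6.39 to -5.26, a log2 difference of 0.75 and a 1.69-fold higher ratio (exact permutation test, p = 0.0073), with 8 of 8 HFC pigs above the LFC median. The p-values of these 7 ratios were not adjusted.

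The other 5 ratios did not pass the exact permutation test. Their log2 differences were 0.28 for ND1 (p = 0.0889, exact permutation), 0.18 for ND4L (p = 0.417, exact permutation), 0.15 for ND2 (p = 0.16, exact permutation) and 0.13 for ND4 (p = 0.53, exact permutation). ND3 had a difference of -0.25 (p = 0.0849, exact permutation), and 1 of 8 HFC pigs was above the LFC median. Together the 7 genes made up 16.4% ± 0.998 and 18.9% ± 1.26 of the counts of mitochondrial mRNAs in LFC and HFC pigs (SD, n = 8 each), with ranges of 14.9% to 17.5% and 17.3% to 21.4%. These ranges overlapped only at their ends.

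**Figure D2:**
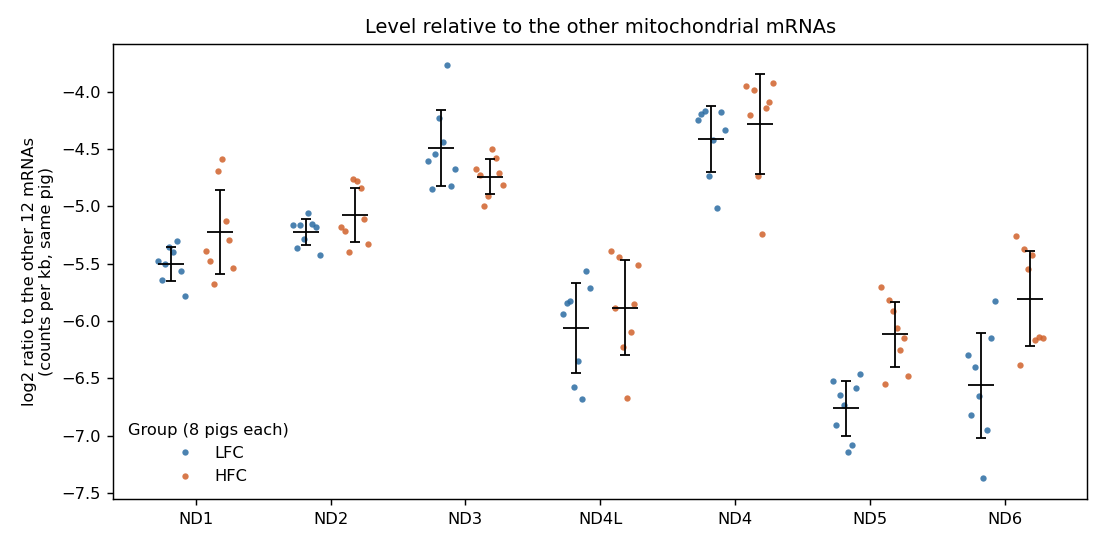
Log2 ratio of each gene to the other 12 mitochondrial mRNAs of the same pig, from counts per kilobase, in 8 LFC and 8 HFC pigs; points are pigs, the long bar is the mean and the whiskers are 1 SD. ND5 and ND6 sit higher in the HFC pigs by 0.65 and 0.75, and ND3 sits lower by 0.25 without passing the test.

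Among the 6 mitochondrial mRNAs outside complex I, log2 fold changes were also above 0 and mostly smaller. CYTB, the complex III subunit next to ND6 on the circle, had 0.44 (edgeR's quasi-likelihood F test, unadjusted p = 0.00831), COX1 of complex IV had 0.33, ATP6 and COX3 had 0.17 each and COX2 had 0.12. ATP8, a subunit of ATP synthase, had 1.32, and this rested on 2 pigs, since it was 408 CPM in HFC 4 and 413 CPM in HFC 5 against 41.2 to 101 CPM in the other 14 pigs. Without them its log2 fold change was 0.17. The 12S and 16S rRNAs, which a poly(A) selection mostly removes, had -0.07 and 0.16 with standard errors of 0.36 and 0.44.

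HFC 4 and HFC 5 stood apart in the complex I genes as well. The count of ND1 was 0.713 and 1.08 times that of ND4 in these pigs, against 0.224 to 0.572 in the other 14, and ND4 made up 28.0% and 21.3% of the complex I counts, against 30.0% to 48.3%. Without both pigs the log2 fold changes of ND5 and ND6 were 0.83 and 0.85 (edgeR's quasi-likelihood F test, unadjusted p of 0.0012 and 0.00345). Those of ND1 and ND2 were 0.35 and 0.30 and no longer passed (unadjusted p of 0.113 and 0.187, edgeR), whereas ND4 and ND4L now passed with 0.52 and 0.51 (unadjusted p of 0.0314 and 0.0337, edgeR). Thus 4 of the 7 were at unadjusted p ≤ 0.05 in either case, but only ND5 and ND6 were shared. Without these pigs the adjusted p of ND4 and ND4L were 0.221 and 0.225 (edgeR), and the share of all genes at unadjusted p ≤ 0.05 was not computed. Relative to the other mitochondrial mRNAs, ND4 had a log2 difference of 0.36 without these pigs (exact permutation test, p = 0.00899). Both pigs were left out after their values of these genes were seen. Leaving out HFC pigs with high ND1 and a low share of ND4 moves these genes by that choice. The p-values without these pigs are therefore descriptions and not tests.

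**Figure D3:**
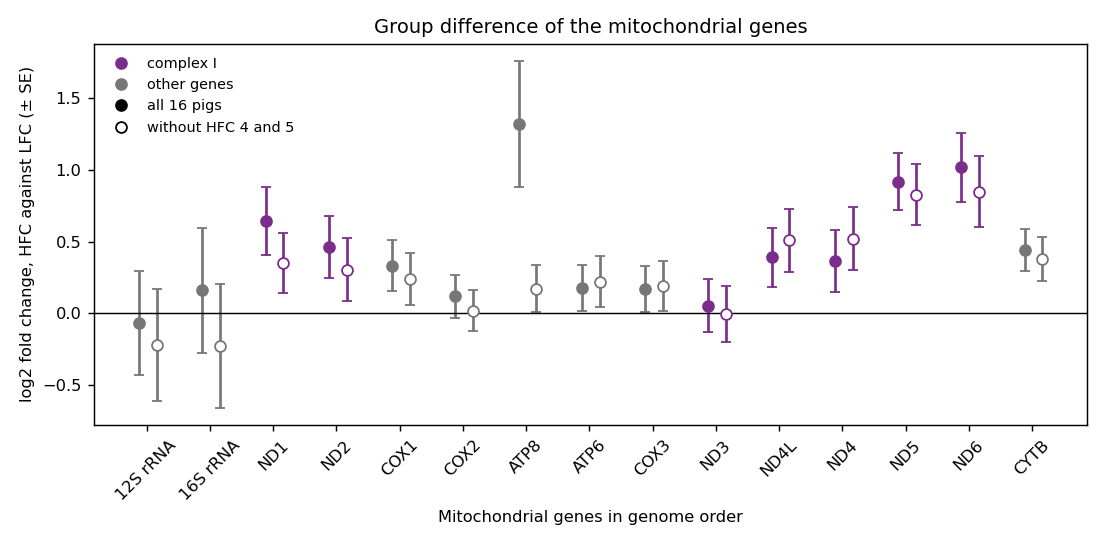
Log2 fold change, HFC against LFC, with 1 standard error (edgeR), of the mitochondrial genes in genome order, for all 16 pigs (filled) and without HFC 4 and HFC 5 (open); complex I genes are purple and the others grey. ND5 and ND6 were at 0.92 and 1.02 and remained at 0.83 and 0.85, whereas ATP8 went from 1.32 to 0.17.

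Some neighbouring genes varied closely together over the pigs and others did not. Of the 21 pairs, the highest r of log2 levels belonged to ND1 with ND2 (0.968), ND5 with ND6 (0.958) and ND4 with ND4L (0.935), each next to the other on the circle. ND4 with ND5 (0.624) and ND3 with ND4L (-0.073) are also consecutive protein genes and had lower values, below the 0.753 of ND2 with ND3, which lie far apart. Among the 18 pairs outside the highest 3, r ran from -0.073 to 0.753. These are descriptions over 16 pigs, in which all values of a pig share its library and its depth, and the median over the 21 pairs was 0.624.

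ND3 had r = -0.073 with ND4L and 0.119 with ND4, which follow it on the circle, and 0.636 with COX3, which precedes it. Its highest values were with the 12S rRNA (0.824), the 16S rRNA (0.816) and COX2 (0.803). ND4 and ND4L had r between -0.22 and 0.00 with both rRNAs. With the group means removed, ND1 and ND2 kept r = 0.962 and ND4 and ND4L kept 0.922, so the pairs did not rest on the group difference.

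**Figure D4:**
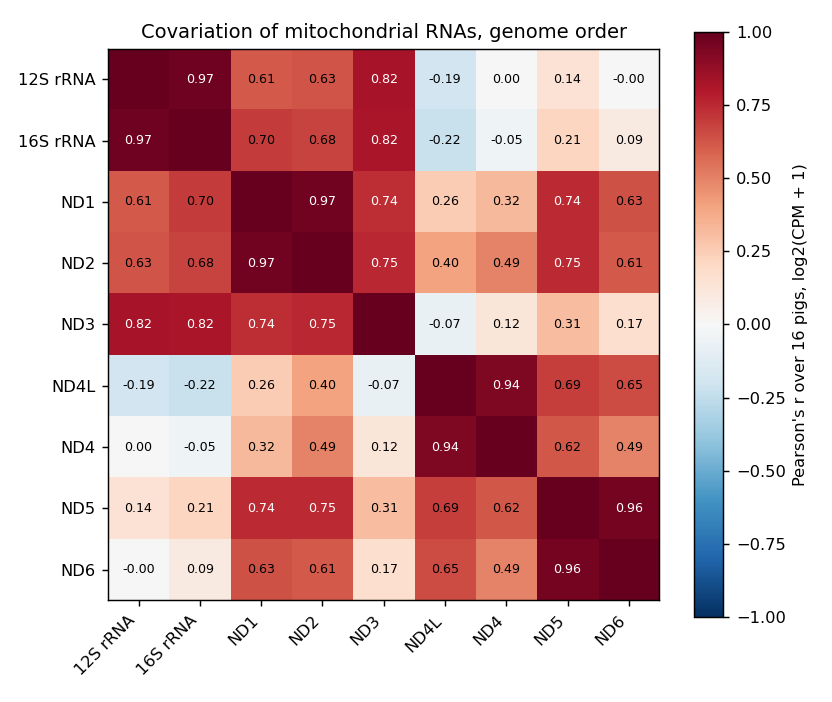
Pearson's r of log2(CPM + 1) over 16 pigs between the 7 genes and both rRNAs, in genome order. Among the 7 genes the darkest cells are those of ND1 and ND2 (0.968), ND5 and ND6 (0.958) and ND4L and ND4 (0.935), whereas the neighbours ND3 and ND4L have -0.073.

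Outside these 3 pairs only the ratios of ND1 and of ND5 to ND4 were examined, and both differed more from pig to pig. ND1 over ND4 spanned 4.80-fold and ND5 over ND4 spanned 3.63-fold, against 1.47-fold for ND4 over ND4L and 1.48-fold for ND1 over ND2. The highest value of both was that of HFC 5. In the 14 pigs other than HFC 4 and HFC 5 they ran from 0.224 to 0.572 and from 0.209 to 0.41. The log2 ratio of ND5 to ND4 was higher by 0.52 in the HFC group (p = 0.0309, exact permutation), but it was 0.25 without HFC 4 and HFC 5 (p = 0.131, exact permutation). It missed 0.05 when any of LFC 2, LFC 3, LFC 5, LFC 7, HFC 4 or HFC 5 was left out, with differences from 0.38 to 0.51. The ratios of ND1 to ND4 and of ND1 to ND2 had log2 differences of 0.15 and 0.13 (p of 0.659 and 0.10, exact permutation). These 5 pair ratios were chosen after the values were seen, and their p-values were not adjusted.

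**Figure D5:**
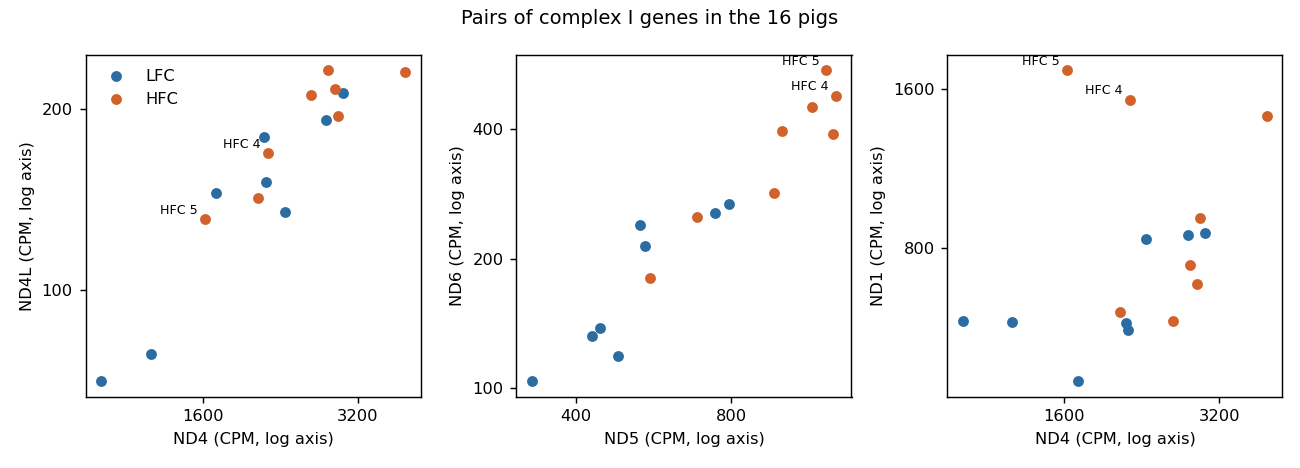
CPM of ND4L against ND4, ND6 against ND5 and ND1 against ND4 (log axes) in the 16 pigs, LFC blue and HFC orange, 1 point per pig. In the first and the second panel the points lie near a line, and in the third HFC 4 and HFC 5, with ND1 at 1529 and 1739 CPM, lie above the other pigs of similar ND4.

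The nuclear subunits of complex I did not share the direction of the mitochondrial ones. Of 37 genes listed, 32 were tested, and 30 of these had a log2 fold change below 0. Over all genes tested, 47.9% were above 0. The median of the 32 was -0.24 and the range from -0.45 to 0.10. These genes share pigs and are not separate replicates. Their mean log2 level per pig was 6.154 ± 0.269 in LFC and 5.92 ± 0.284 in HFC pigs (SD, n = 8 each, exact permutation p = 0.112). That of 59 cytosolic ribosomal protein genes was 9.345 ± 0.387 and 9.038 ± 0.438 (exact permutation p = 0.163). At unadjusted p ≤ 0.05, 8 of the 32 were lower in the HFC pigs, against 4.41% of all genes tested, and 0 were higher, against 7.03%. Their smallest adjusted p was 0.413 in edgeR, Benjamini-Hochberg adjusted. NDUFA9, an accessory subunit of the peripheral arm, had 57.9 ± 5.54 and 49.9 ± 5.16 CPM (SD, n = 8 each) in LFC and HFC pigs, with all 8 HFC pigs below the LFC median. NDUFC1, a small membrane arm subunit, had the lowest log2 fold change, -0.45, and NDUFS7, which holds an iron-sulfur cluster, had -0.23. The core subunit NDUFS1 had 0.00, and NDUFV3 had 0.10, the highest of the 32.

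Assembly factors of complex I were at a median log2 fold change of -0.19, with 16 of 19 below 0. Over all genes tested, 47.9% were above 0. At unadjusted p ≤ 0.05 in edgeR, 2 of the 19, ECSIT (-0.21) and NDUFAF5 (-0.34), were lower in the HFC pigs, against 4.41% of all genes tested. At this p 0 were higher, against 7.03% of all genes tested. AIFM1 had 0.048 and TIMMDC1 0.055. Of 11 genes for replication and transcription of mitochondrial DNA, 0 were at unadjusted p ≤ 0.05 in edgeR. POLRMT, the mitochondrial RNA polymerase, had 32.2 ± 5.81 and 36.3 ± 6.87 CPM (SD, n = 8 each), a log2 fold change of 0.18, and the helicase TWNK also had 0.18. The rRNA methyltransferase TFB1M had -0.37 and MTERF2 had -0.19. Among 19 genes tested for processing and stability of mitochondrial RNA, 0 were at unadjusted p ≤ 0.05 in edgeR, and the values ran from -0.33 for HSD17B10, a subunit of the mitochondrial RNase P, to 0.19 for ELAC2, which cuts the other end of tRNAs. The poly(A) polymerase MTPAP had 0.06 and the exonuclease REXO2 had -0.22. In none of these lists did a gene pass the adjusted p of 0.05 in edgeR.

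Levels of the 7 genes were set beside measures that differ between glands and libraries, in 35 relations adjusted together. ND4L was lower in pigs with a higher mean of 59 cytosolic ribosomal protein genes, with r = -0.777 (permutation p = 9.8e-04, adjusted p = 0.017) and rho = -0.703 (permutation p = 0.0031, adjusted p = 0.0362). Within the LFC and HFC pigs r was -0.781 and -0.788 (exact permutation p of 0.0241 and 0.0126, n = 8 each), and without the 2 pigs farthest from the median it was -0.731. ND4 had r = -0.715 with the same measure (permutation p = 0.00206, adjusted p = 0.018) and rho = -0.594 (permutation p = 0.0178, adjusted p = 0.089), with r = -0.661 and -0.704 within the groups and -0.611 without the 2 pigs.

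ND4L also followed the slope of expression on gene span, which is higher in pigs whose long genes have relatively more counts. Here r was 0.788 (permutation p = 5.4e-04, adjusted p = 0.017) and rho 0.60 (permutation p = 0.0163, adjusted p = 0.089), with 0.812 in the LFC and 0.631 in the HFC pigs, but r was 0.449 without LFC 4 and LFC 6, so the relation rested in large part on these pigs. For ND4, r with this slope was 0.659 (permutation p = 0.00606, adjusted p = 0.0424) and rho 0.359 (permutation p = 0.174, adjusted p = 0.289), with 0.678 and 0.447 within the groups and 0.23 without the same pigs. With the mean of the nuclear complex I subunits, ND4L had r = -0.739 (permutation p = 0.00146, adjusted p = 0.017) and rho = -0.647 (permutation p = 0.00808, adjusted p = 0.0707). This r was -0.781 in the LFC pigs, -0.598 in the HFC pigs and -0.644 without 2 pigs. The ribosomal mean, the nuclear complex I mean and the slope went together over the pigs. LFC 4, LFC 6 and HFC 5 had the highest values of both means and the lowest slopes (-0.31, -0.32 and -0.25). The relations with these measures are therefore not separate results.

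Both genes also followed the total count of the library. For ND4L rho was 0.747 (permutation p = 0.00142, adjusted p = 0.0297) and r 0.604 (permutation p = 0.0145, adjusted p = 0.0656), with r = 0.648 and 0.676 within the LFC and HFC groups and 0.637 without the 2 pigs farthest from the median. For ND4 rho was 0.729 (permutation p = 0.0017, adjusted p = 0.0297) and r 0.598 (permutation p = 0.015, adjusted p = 0.0656), with r = 0.646 and 0.584 within the groups and 0.60 without 2 pigs. ND4 and ND4L were thus higher in the more deeply counted libraries, and the total count ran from 6258650 to 8402619 in the LFC group and from 6010629 to 11794256 in the HFC group (exact permutation p = 0.124). The part of depth in their levels was not tested.

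ND5 and ND6 had no relation past an adjusted p of 0.05. For ND5, r was -0.422 with the ribosomal protein genes (rho = -0.521, permutation p of 0.105 and 0.0415, adjusted p of 0.242 and 0.168) and 0.312 with the total count (rho = 0.424, permutation p of 0.242 and 0.103, adjusted p of 0.429 and 0.20). The corresponding r without 2 pigs were -0.745 (without LFC 4 and HFC 5) and 0.723 (without HFC 8 and HFC 5), so these values depended on those pigs. For ND6, r with the ribosomal protein genes was -0.36 over 16 pigs and -0.729 without the same pigs. With the total count it was 0.256 and 0.676. PRL, the hormone gene of lactotroph cells, had a mean of 30110 ± 13380 CPM in the LFC and 72530 ± 27490 CPM in the HFC pigs (SD, n = 8 each; exact permutation test on log2 levels, p = 0.00109). ND5 had r = 0.452 with PRL over 16 pigs (rho = 0.497, permutation p of 0.0786 and 0.0527, adjusted p of 0.233 and 0.168), but 0.025 in the LFC and -0.628 in the HFC pigs. ND6 had r = 0.51 with PRL (rho = 0.497, permutation p of 0.0457 and 0.0528, adjusted p of 0.16 and 0.168), with 0.202 and -0.387 within the groups. The share of hormone cell types in the group difference of these genes was not tested.

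Markers of other cells that a whole gland can hold moved with the groups only in part. The summed level of 5 glia and myelin genes tested (of 8 listed) was 142 to 6021 CPM in the LFC pigs and 125 to 3340 CPM in the HFC pigs, and was highest in LFC 5, HFC 6 and LFC 1. Without these 3 pigs the same 4 genes, ND1, ND2, ND5 and ND6, were at unadjusted p ≤ 0.05, and the share of all genes was not computed. All 5 glia and myelin genes had log2 fold changes below 0, and 0 were at unadjusted p ≤ 0.05 in edgeR. Over all genes tested, 47.9% were above 0. Blood markers (HBB and ALAS2, 2 of 4 listed) summed to 277 to 1427 CPM in the LFC and 63.1 to 1045 CPM in the HFC pigs, with ALAS2 at an unadjusted p of 0.0289 (edgeR). Of 5 endothelial genes, all had log2 fold changes above 0 and 2 had unadjusted p ≤ 0.05 (VWF 0.78 and CDH5 0.43), against 7.03% of all genes tested. Of 5 connective tissue genes 1 did, COL1A2, with 104.0 ± 30.5 and 193 ± 45.4 CPM in LFC and HFC pigs (SD, n = 8 each) and a log2 fold change of 0.89, whose p of 1.47e-04 (edgeR) was smaller than that of ND5. Of 7 macrophage genes 0 did in edgeR. ALAS2, VWF, CDH5 and COL1A2 were named after their values were seen. Skeletal muscle markers summed to at most 10.1 CPM, with 2 of 5 tested. The part of these cell types in the levels of the 7 genes was not tested.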

How the data were processed

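The authors made non-strand-specific poly(A) libraries (TruSeq v2) from whole pituitaries and, per the submitters' processing notes and their methods, used CASAVA 1.8.2, FastQC, Flexbar, STAR and RSEM with Sscrofa11.1 and the Ensembl annotation. The deposited values are unnormalized whole-number counts per gene and pig. Whether they are rounded RSEM estimates is not given in the sources used here. Gene positions and symbols, a deposited column of another kind with no unit of expression, were read from a companion table of the authors' comparison, whose group means, ratios, log2 values and p-values were not used. Symbols missing there came from the RefSeq table of Sscrofa11.1.

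Groups came from the sample labels. The members and lists were chosen with earlier results of these data known. Named were all 7 members, the other mitochondrial genes, from each nuclear list the 2 lowest p-values in either direction, and the 5 genes most and the 3 least like the members in mean r. In R 4.3.3, edgeR 4.0.16 (TMM, its expression filter, 13621 genes, quasi-likelihood F test, Benjamini-Hochberg) compared the groups, called at adjusted p ≤ 0.05 and at least 1.3-fold. Ratios were tested by exact two-sided permutation over 12870 splits, and correlations of log2(CPM + 1) by 100000 permutations. P-values compare the group difference with the spread between these 16 pigs, and total counts were between 6010629 and 11794256 per pig. Alternatives were DESeq2 1.42.0, voom with quality weights (limma 3.58.1), other scalings, filters and thresholds, a pseudocount of 0.1, a replicate block and each pig left out. Leaving out HFC 4 and 5 or the 3 pigs highest in glia markers was chosen after seeing the data. Python 3.11.15, numpy 2.4.6, scipy 1.17.1, pandas 2.3.3 and matplotlib 3.10.9 did the rest. On simulated data of 13525 genes, edgeR recovered 93 of 100 genes changed 2-fold and 55 of 100 changed 1.5-fold and called 3 unchanged genes. In the 16 pigs, ND6 was 2.02-fold higher in the HFC group and was not called (edgeR's quasi-likelihood F test, adjusted p = 0.372). Whether the recovery on simulated data holds for these pigs was not tested. No sequences are printed, and 1 gene that the naming rule selects is not reported here.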

Additional observations from a re-analysis of the deposited data

How the results depend on the processing

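Of 539 values recomputed under an alternative, 506 were labelled the same. For a fold change this meant the same sign and the same side of the call threshold, which no gene reached in any edgeR setting. Moves across an unadjusted p of 0.05, such as those of ND1 and ND4 without HFC 4 and HFC 5, thus counted as the same. A count was labelled the same if it changed by less than a set factor. DESeq2 called 29 genes, 2 of them among the 7, against 0 and 0 in edgeR. With limma voom 2 of the 7 were at unadjusted p ≤ 0.05 (ND5 and ND6). At this p and any fold change, 1313 genes were higher and 1227 lower in the HFC pigs with voom, against 958 and 601 in the main fit. With 1 pig left out, the number of the 7 at this p ran from 3 to 6, the highest without LFC 3. The share of all genes at this p was not computed for fits with pigs left out. The log2 fold change of ND3 was -0.053 with voom, -0.0036 without HFC 4 and HFC 5, and from -0.059 to 0.128 with 1 pig left out (below 0 without LFC 2, LFC 7 or HFC 6). The log2 difference of ND1 over ND4 was -0.26 without HFC 4 and HFC 5, and from -0.070 (without HFC 5) to 0.261 with 1 pig left out. Relative to the other mitochondrial mRNAs, ND4 had 0.36 without HFC 4 and HFC 5, and with 1 pig left out ND1 ran from 0.19 to 0.34 (below 0.05 without HFC 3) and ND3 from -0.30 to -0.15 (below 0.05 without LFC 2 or LFC 7). ND5 and ND6 ran from 0.59 to 0.71 and from 0.64 to 0.86. Without the 2 pigs farthest from the median, r of ND5 was -0.648 with the nuclear subunits, -0.745 with the ribosomal protein genes, 0.00987 with the slope on gene span, 0.723 with the total count and 0.684 with PRL, and r of ND4L was 0.449 with that slope and 0.512 with PRL. For ND6 these r were -0.69, -0.729, 0.0232, 0.676 and 0.75, in the order given for ND5. The cause of these changes was not tested.

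The replicate numbers follow the order of the numbers in the sample titles within each group, so they need not pair pigs. All title numbers of LFC pigs are below those of HFC pigs, and their meaning is not given. The correlation of same-numbered pigs ran from -0.34 to 0.37 and was over 0.1 in 3 of 8 pairs. With a replicate block, 0 genes were called and 4 of the 7 (ND1, ND4L, ND5 and ND6) were at unadjusted p ≤ 0.05. At this p and any fold change, 907 of all genes were higher and 497 lower in the HFC pigs with the block. The relative level of ND1, with a log2 difference of 0.28, had an exact sign-flip p of 0.0313. Of the LFC pigs, 0 of 8 correlated best with their own number.

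The 7 genes had 412 to 37203 counts per pig, and the common coefficient of variation between pigs was 0.249.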

Other observations

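Of 12340 genes off chromosome MT with a symbol, those with the highest mean Pearson's r to the 7 complex I genes over 16 pigs were PASK (0.639), FDPS (0.631), TPCN1 (0.615), PITRM1 (0.614) and SEMA5B (0.609), where the median over all of them was 0.016. FDPS makes farnesyl diphosphate in the mevalonate pathway, PITRM1 is a peptidase of the mitochondrial matrix and TPCN1 is a channel of endosomes and lysosomes. FDPS had 9.51 ± 4.17 CPM in the LFC pigs and 14.3 ± 5.31 CPM in the HFC pigs (SD, n = 8 each). For each of the 5, r was lowest with ND3, from 0.234 for TPCN1 to 0.434 for PASK. The lowest mean r were those of SAAL1 (-0.673), EFR3A (-0.635) and TMEM248 (-0.633), and EFR3A, a plasma membrane protein, had 102 ± 9.55 and 83.2 ± 8.83 CPM (SD, n = 8 each). These values are descriptions, since the genes are the extremes of many and the pigs also differ by group.

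In 28 groups of 8 values (each of the 7 genes and its relative level, in the LFC and in the HFC pigs), no single pig was separated from the others beyond the critical value of Dixon's test. This test is for a single extreme pig and can miss pigs that are extreme together, such as HFC 4, HFC 5 and HFC 6 in ND1. ATP8, in which HFC 4 and HFC 5 stood apart, was not among these groups.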
